A study of Danio rerio with 16 samples.

Results

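Heart muscle nuclei that carried no transcript of *ankrd1a*, a stretch-responsive muscle protein gene that marks injured myocardium, were followed across 4 single-nucleus RNA sequencing matrices of adult zebrafish (*Danio rerio*) hearts. In each matrix, barcodes with at least 500 UMIs (unique molecular identifiers, each counting 1 captured RNA molecule), at most 5% mitochondrial UMIs and 0 *ankrd1a* UMIs were ranked by their share of UMIs on 8 muscle genes. The 1500 highest of each matrix were kept, which made 6000 of 68320 barcodes. The 8 genes were *ttn.1*, *ttn.2*, *ryr2b*, *myl7*, *tnnt2a*, *actc1a*, *myh7l* and *slc8a1a*. The nuclei were thus chosen by measured UMI counts, so the muscle genes and *ankrd1a* are described here and are no finding.

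The hearts came from fish with the *cited4a* genotype pt38a/pt38a, called mutant here, and from wild-type (WT) fish. Each genotype was taken 3 days after about 20% of the ventricle had been cut away (3dpa), or uninjured (UI). The labels list 16 samples, 4 in each of the 4 groups. The titles of a group differ only in a lane-like ending. The sources used here do not state whether they are lanes of 1 library or separate libraries. The counts of a group came as 1 matrix whose barcodes name no sample. Each group is therefore 1 library here, no comparison has a replicate check, no test was made, and every interval covers counting error only. The sources used here do not give age, sex or the number of hearts pooled.

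Cardiomyocytes are the contracting cells of the heart, packed with sarcomeres whose filaments are built from titin, myosin, actin and the troponins. Their beat is driven by calcium that enters through surface channels, is released from the sarcoplasmic reticulum by ryanodine receptors, and is removed by the sodium-calcium exchanger and the SERCA pump. Adult zebrafish replace lost ventricular muscle by division of existing cardiomyocytes, and those beside a wound switch on stretch and injury genes such as *ankrd1a* and *nppb*. Cited4a belongs to a family of small nuclear proteins that bind the p300 and CBP coactivators.

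The matrices labelled mutant 3dpa, mutant UI, WT 3dpa and WT UI held 12360, 35484, 12167 and 8309 barcodes, with 12984219 to 24511414 UMIs each. After the filters 9133, 9636, 9606 and 8076 barcodes without *ankrd1a* were left. The mutant gene tables listed 27758 genes and those of WT listed 25432 genes, and the genotypes shared 0 barcodes. All 12167 and 8309 barcodes of WT 3dpa and WT UI had at least 500 UMIs, against 9656 and 15616 of those in mutant 3dpa and mutant UI. Genotype therefore cannot be told apart from gene table or from other differences in how the matrices were made. Levels were computed over the genes common to all tables, which does not undo such other differences. The mutant pair shared 133 barcodes and the WT pair 136, of which 0 and 4 were among the chosen nuclei.

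The chosen nuclei differed in depth and in how muscle-rich they were. Their median depth was 1143.5 and 1254.5 UMIs in the libraries labelled mutant 3dpa and mutant UI, against 2260 and 1961.5 UMIs in those labelled WT 3dpa and WT UI. Midway down the ranking the share of UMIs on the 8 genes was 7.32% and 5.85% in the mutant libraries, against 10.8% and 12.01% in the WT libraries, in the same order of injury. At the boundary the share was 6.52% in the last nucleus kept and 6.51% in the next one of the library labelled mutant 3dpa, and 5.08% in both of mutant UI. It was 9.05% in both nuclei of WT 3dpa and 10.95% in both of WT UI. The boundary thus cut through a smooth slope in all 4 matrices, and nuclei just outside it were as rich in muscle transcripts as those just inside. The median share over all nuclei without *ankrd1a* past the filters was 4.96% and 3.13% in mutant 3dpa and mutant UI, against 2.71% and 8.64% in WT 3dpa and WT UI. In the libraries labelled WT UI and mutant 3dpa the slope thus stayed shallow far beyond the nuclei kept. The chosen nuclei of these libraries are the top of a larger set of muscle-rich nuclei.

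**Figure D1:**
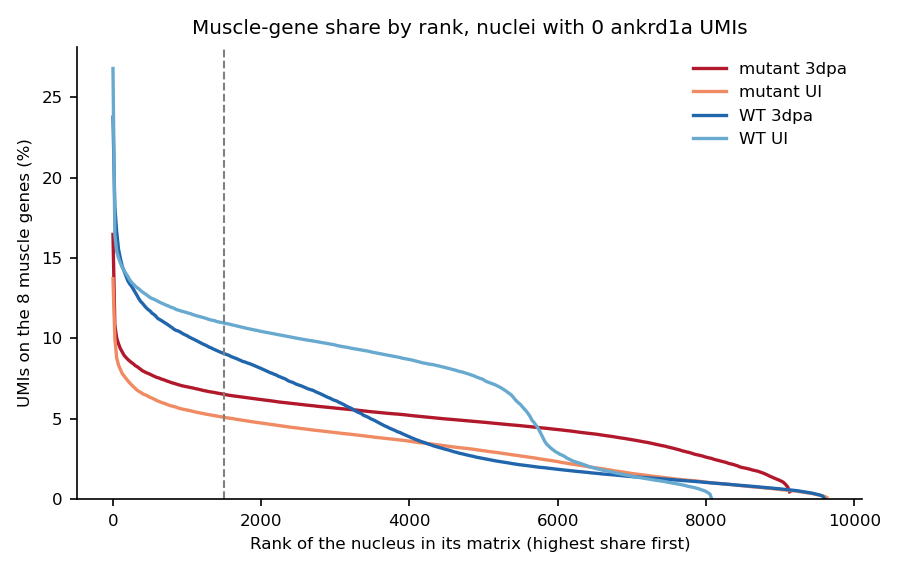
Share of UMIs on the 8 muscle genes (vertical axis, %) against rank (horizontal axis) for the nuclei without ankrd1a UMIs in the 4 matrices, with a dashed line at rank 1500. The curves cross the line at 6.52% in mutant 3dpa, 5.08% in mutant UI, 9.05% in WT 3dpa and 10.95% in WT UI, with no step there.

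The chosen nuclei were also described by marker genes of other cell types. The comparison is with nuclei of low muscle share, so lower sums in the muscle nuclei follow in part from the ranking. They do not test the label of muscle nuclei. As a comparison population, the 1500 barcodes with the lowest muscle share were taken from the same pool in each matrix, whose median share was 2.13%, 0.650%, 0.697% and 1.17% in the order mutant 3dpa, mutant UI, WT 3dpa and WT UI. The higher value in mutant 3dpa means that its comparison nuclei held more muscle RNA, so ratios against them are smaller in that library. Endothelial and endocardial markers summed to 777, 560, 628 and 939 CPM (UMIs scaled to a common library total) in the muscle nuclei, against 4163, 2109, 3753 and 7517 CPM in the lowest 1500. Macrophage markers summed to 158, 539, 397 and 227 CPM, against 1012, 3761, 3037 and 4744 CPM. Both lists were thus several-fold lower in the muscle nuclei of every library, although only 1, 2, 0 and 0 of 21 endothelial markers and 0 of 17 macrophage markers had no UMI there. The lists of mural and smooth muscle and of neuronal or Schwann markers were exceptions. The mural sum was 723, 991, 1889 and 1868 CPM in the muscle nuclei, against 636, 762, 1229 and 1201 CPM in the lowest 1500. Of its 14 genes, 3, 3, 4 and 4 were higher in the muscle nuclei, among them *abcc9*, a subunit of ATP-sensitive potassium channels that is also on the list of heart excitation genes. The neuronal or Schwann sum was 201, 178, 88.2 and 114 CPM in the muscle nuclei, against 195, 144, 199 and 101 CPM, so it was lower in the muscle nuclei of WT 3dpa alone. T or NK lymphocyte markers stood at 130, 153, 125 and 91.8 CPM, against 163, 249, 216 and 246 CPM.

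RNA of other cells was not equally present in the 4 libraries. Fibroblast and epicardial markers summed to 158 and 1054 CPM in the muscle nuclei labelled mutant 3dpa and mutant UI, against 889 and 243 CPM in those labelled WT 3dpa and WT UI. Erythroid markers summed to 499, 3479, 1512 and 723 CPM in that order, and 75, 993, 718 and 269 of the 1500 nuclei carried 3 or more erythroid UMIs. The libraries labelled mutant UI and WT 3dpa were therefore the higher pair for both lists. In the lowest 1500 the fibroblast sum was 1661, 8904, 14355 and 2199 CPM, with the same pair on top. The injury states thus stood in opposite order in the mutant and the WT pair for these markers, and also for *nppb* and for the share of muscle nuclei with *ankrd1a*, both given below. No value used here checks the injury labels of the mutant pair, so every value of mutant 3dpa over UI holds for the libraries as labelled.

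**Figure D2:**
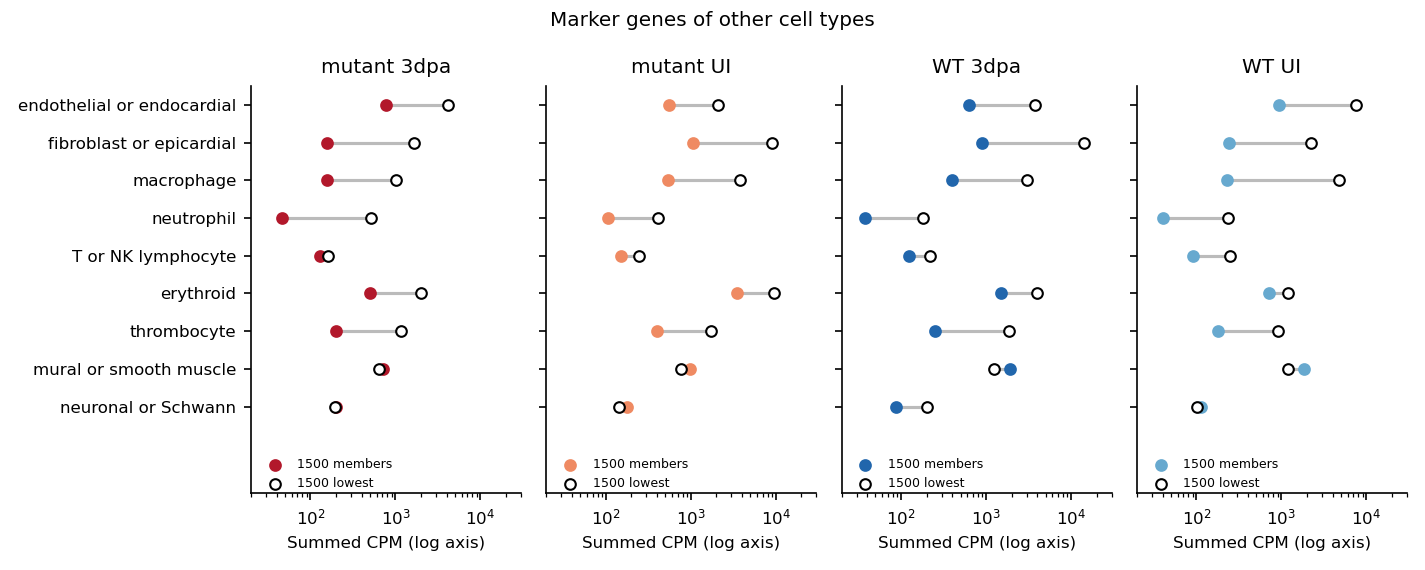
Summed CPM of marker lists of 9 other cell types (horizontal log axis) in the 1500 muscle nuclei (filled) and in the 1500 nuclei of lowest muscle share (open) of each library. Endothelial, fibroblast, macrophage, neutrophil, erythroid and thrombocyte sums are lower in the muscle nuclei of every library, the mural or smooth muscle sum is higher, and the neuronal or Schwann sum is lower in WT 3dpa alone.

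Leaving out the 8 genes used for ranking, 242 of 11403 genes (2.12%) were at least 2 times as high, in CPM + 10, in the muscle nuclei as in the lowest 1500 in every library. Together with the 8 they were the 11411 genes with at least 50 UMIs over the 6000 nuclei, and this comparison follows from the ranking and was not tested. The genes picked out here stood high on that list and were chosen after their values were seen. *prox1a*, a homeobox transcription factor, stood at 741, 541, 675 and 605 CPM in the order mutant 3dpa, mutant UI, WT 3dpa and WT UI, against 245, 102, 60.7 and 92.7 CPM in the lowest 1500. *cacna1g*, a T-type calcium channel, stood at 6109, 7600, 3669 and 3920 CPM, against 2017, 1576, 1018 and 717 CPM. *gcgra*, a glucagon receptor, stood at 1181, 1011, 787 and 1113 CPM, against 398, 99.8, 67.1 and 123 CPM. *obscnb*, an obscurin of the sarcomere, stood at 463, 418, 999 and 922 CPM, against 132, 65.8, 67.1 and 101 CPM. That these genes were higher in all 4 libraries follows from how the list was made, although they had no part in the ranking. Set against all other barcodes of its own matrix, which include many further muscle nuclei, the same threshold was met in every library by 0 genes (0%).

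*cited4a* (ENSDARG00000035990), the gene the mutant line is named for, did not separate the libraries by genotype. It stood at 333 CPM (95% Poisson interval 308 to 359) in the muscle nuclei labelled mutant 3dpa and at 28.7 CPM (21.8 to 37.2) in those labelled mutant UI. It stood at 54.3 CPM (47.1 to 62.3) in WT 3dpa and at 177 CPM (164 to 192) in WT UI. The highest and the lowest levels were thus both in mutant libraries, and the intervals of the 4 libraries did not overlap. After each nucleus had been thinned to 500 UMIs, 15.0%, 1.04%, 2.40% and 8.13% of muscle nuclei in that order held a *cited4a* UMI, against 10.2%, 1.55%, 1.27% and 2.003% of the lowest 1500. In barcodes with at least 3 UMIs on macrophage markers the thinned share was 15.0%, 1.99%, 2.37% and 3.41%, at median depths of 759, 892, 1150 and 941 UMIs before thinning. Those barcodes were not free of muscle RNA, since the 8 muscle genes summed to 47874, 27819, 46838 and 77879 CPM in them. Beside those barcodes, the share in muscle nuclei was lower in mutant UI, higher in WT UI and about equal in the 3dpa libraries, while beside the lowest 1500 it was higher in every library except mutant UI. Neither population lacks muscle RNA, so neither gives the share that free RNA alone would leave, and no expression is read from these shares. The sources used here do not give where the pt38a allele changes the gene, so a count of 3′ ends does not check the genotype. Since neither genotype nor injury state could be checked for the mutant libraries, each library is called by its label throughout.

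Gene levels were compared as the log2 ratio of CPM + 10, on which low genes change less than in plain CPM, and a gene was called past 2-fold where the ratio was at least 1 in size. For the mutant libraries labelled 3dpa over UI, 277 of 11411 genes were past 2-fold higher (2.43%) and 377 lower (3.3%). In the WT libraries labelled 3dpa over UI, 190 were higher (1.67%) and 57 lower (0.5%). For mutant over WT at 3dpa, 460 were higher (4.03%) and 572 lower (5.01%). For mutant over WT at UI, 906 were higher (7.94%) and 424 lower (3.72%). The median gene lay at −0.16, 0.08, −0.07 and 0.18 in these comparisons, and the split into higher and lower moved with the scaling. Under TMM factors, which set the typical gene to no change, the higher and lower counts were 393 and 233, 154 and 99, 582 and 475, and 540 and 634. With DESeq2 size factors they were 399 and 228, 143 and 108, 602 and 462, and 528 and 658. The balance of higher against lower genes is therefore not read below, and single genes are named where their ratio is large.

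In the mutant libraries, the muscle nuclei labelled 3dpa were higher than those labelled UI in genes of insulin signalling and fasting metabolism. *irs1*, which encodes an insulin receptor substrate that relays the signal of the activated receptor, stood at 1796 CPM (1737 to 1856) in mutant 3dpa and at 225 CPM (204 to 247) in mutant UI, a log2 ratio of 2.94. *irs2b*, another insulin receptor substrate gene, stood at 1626 CPM (1570 to 1684) and 149 CPM (132 to 167), a log2 ratio of 3.37. Both were several-fold higher in the library labelled 3dpa, with intervals far apart. *pparab*, a zebrafish copy of the nuclear receptor PPAR alpha that turns on fatty acid oxidation, stood at 687 CPM (651 to 725) and 105 CPM (91.5 to 121). *fbxo32*, the muscle-specific ubiquitin ligase subunit known from wasting muscle, stood at 662 CPM (627 to 700) and 124 CPM (109 to 141). The log2 ratios of *pparab* and *fbxo32* were 2.60 and 2.32. In the lowest 1500 of mutant 3dpa these 4 genes stood at 648, 699, 290 and 308 CPM, above the muscle nuclei of mutant UI. Levels below the muscle nuclei of mutant 3dpa follow from the naming rule, which took only genes at least 2 times as high there.

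The same comparison singled out muscle kinases and a channel subunit. *sbk3*, a serine/threonine kinase gene, stood at 1169 CPM (1121 to 1218) in mutant 3dpa and at 57.9 CPM (47.8 to 69.6) in mutant UI, a log2 ratio of 4.12. *mylk4b*, of the myosin light chain kinase family, stood at 2012 CPM (1949 to 2076) and 145 CPM (128 to 162), a log2 ratio of 3.71. These were the 2 genes with the highest ratios among those at least 2 times as high in the muscle nuclei as in the lowest 1500. *scn3b*, a sodium channel beta subunit, stood at 951 CPM (908 to 995) and 188 CPM (169 to 208), and *smad3b*, an effector of TGF-beta signalling, at 729 CPM (691 to 768) and 86.2 CPM (73.7 to 100). *nr4a3*, an orphan nuclear receptor gene of the early stress response, stood at 149 CPM (132 to 167) and 7.56 CPM (4.23 to 12.5). The remaining genes named by the same rule as higher were *mapk4*, *mgat4b* and a clone-named gene, at log2 ratios of 3.17, 2.11 and 2.44.

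Some of the genes named as lower in the library labelled mutant 3dpa than in mutant UI act in excitation or transcription. The calcium and excitation list as a whole did not go that way, with 4 genes higher and 2 lower and a median log2 ratio of 0.17. *rrad*, a small GTPase that restrains L-type calcium channels, stood at 26.8 CPM (20.0 to 35.1) in mutant 3dpa and at 297 CPM (273 to 322) in mutant UI, a log2 ratio of −3.06. *klf11b*, a Krüppel-like transcription factor, stood at 81.9 CPM (69.7 to 95.7) and 438 CPM (410 to 469), and *irx1a*, an Iroquois homeobox factor, at 15.5 CPM (10.4 to 22.1) and 81.1 CPM (69.1 to 94.7). These 3 regulators were several-fold lower, with log2 ratios of −3.06, −2.29 and −1.84. *fhl2a*, a LIM-domain cofactor, had a log2 ratio of −2.22. *kcnj5*, a subunit of the acetylcholine-gated potassium channel, had one of −1.81 at low levels in both libraries. *desma*, which encodes the intermediate filament desmin, stood at 400 CPM (372 to 429) and 1036 CPM (992 to 1082), a log2 ratio of −1.35. *nppb*, a natriuretic peptide gene that marks strained myocardium, stood at 8.76 CPM (5.10 to 14.02) and 286 CPM (263 to 310). In the lowest 1500 *nppb* stood at 9.87 and 246 CPM, so within each mutant library the nuclei of low muscle share carried it at about the level of the muscle nuclei.

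In WT hearts the muscle nuclei labelled 3dpa were higher in a potassium channel gene and in *irs1* and *pparab*. *kcnh6a*, the ERG-type potassium channel gene that carries repolarising current in the zebrafish heart, stood at 2674 CPM (2622 to 2727) in WT 3dpa and at 513 CPM (490 to 537) in WT UI, a log2 ratio of 2.36. *irs1* stood at 819 CPM (791 to 849) and 159 CPM (146 to 173), a log2 ratio of 2.30. *pparab* stood at 605 CPM (580 to 630) and 142 CPM (130 to 155), a log2 ratio of 2.01. The intervals of these 3 genes lay far apart between the libraries. In the lowest 1500 of WT 3dpa they stood at 232, 125 and 46.4 CPM. Lower levels there follow from the naming rule, which took only genes at least 2 times as high in the muscle nuclei. Not every gene of the mutant contrast followed, since *irs2b* stood at 511 and 300.1 CPM in WT 3dpa and WT UI and *fbxo32* at 94.0 and 101 CPM, with log2 ratios of 0.75 and −0.10. *magi3b*, a scaffold protein gene of cell junctions, stood at 486 CPM (464 to 509) and 96.7 CPM (86.9 to 107), a log2 ratio of 2.22. *zbtb16b*, a copy of the zinc finger repressor PLZF, stood at 112 CPM (101 to 123) and 20.9 CPM (16.5 to 26.2), and *npas2*, a partner of BMAL in the circadian clock, at 156 CPM (144 to 169) and 30.9 CPM (25.4 to 37.1). *eif4ebp3l*, of the family that holds back cap-dependent translation, had a log2 ratio of 1.74, and *kcnh7*, another ERG-family channel gene, one of 2.27.

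Genes lower in the library labelled WT 3dpa than in WT UI included early stress genes. *gadd45ba*, a stress-induced growth arrest gene, stood at 104 CPM (94.3 to 115) in WT 3dpa and at 382 CPM (362 to 403) in WT UI, a log2 ratio of −1.78. *atf3*, a transcription factor induced by many stresses, stood at 50.1 CPM (43.2 to 57.8) and 188 CPM (175 to 203), a log2 ratio of −1.72. *chrm2a*, the muscarinic receptor through which the vagus slows the heart, stood at 249 CPM (233 to 265) and 751 CPM (723 to 780), a log2 ratio of −1.56. These genes were thus higher in the uninjured WT library. Of all 49 immediate-early and heat-shock genes, however, 3 were higher and 3 lower in WT 3dpa, with a median log2 ratio of 0.02. That is 6.12% in each direction, beside 1.67% higher and 0.5% lower over all genes. The splicing regulator genes *srrm4* and *celf4* had log2 ratios of −1.89 and −1.49. *nppb* differed little between the WT libraries, at 376 CPM (357 to 396) in WT 3dpa and 269 CPM (252 to 286) in WT UI, a log2 ratio of 0.47, as did *desma* at 0.35 and *nppa* at −0.00.

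**Figure D3:**
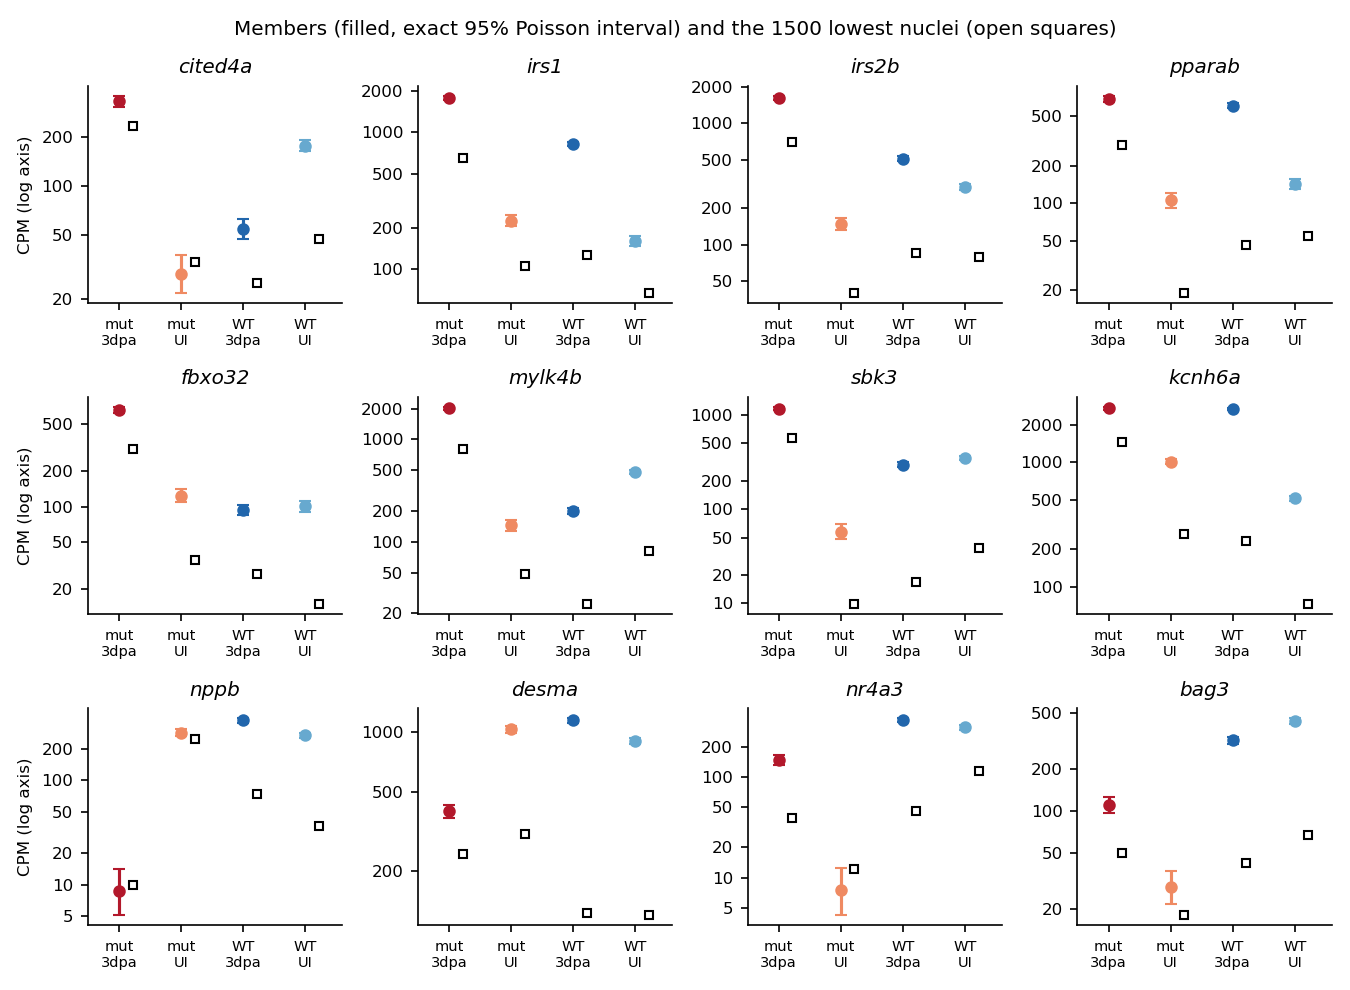
CPM (vertical log axis, scaled for each gene) of 12 genes in the muscle nuclei of the 4 libraries (filled circles with exact 95% Poisson intervals) and in the 1500 nuclei of lowest muscle share (open squares). irs1 and pparab are higher in the libraries labelled 3dpa of both genotypes, nppb and desma are lowest in mutant 3dpa, and cited4a and mylk4b order the injury states oppositely in the 2 genotypes.

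The injury contrasts of the genotypes share no library. Of the genes past 2-fold higher, 29 were common to both contrasts, which is 10.5% of the mutant list and 15.3% of the WT list, beside 1.67% and 2.43% of all genes higher in WT and in the mutant. They included *irs1*, *irs2a*, *pparab*, *zbtb16a*, *zbtb16b*, *kcnh6a*, *eif4ebp3l* and *pdk4*. *zbtb16a*, another PLZF copy, stood at 2147 and 757 CPM in mutant 3dpa and mutant UI, against 1284 and 359 CPM in WT 3dpa and WT UI. *pdk4*, a kinase that shuts off pyruvate dehydrogenase during fasting, stood at 357 and 126 CPM, against 169 and 70.5 CPM. Both were thus higher under the 3dpa label in each genotype. In contrast, 65 genes were lower in the mutant contrast and higher in the WT contrast, 17.2% of the mutant list and 34.2% of the WT list, beside 1.67% of all genes higher in WT and 3.3% lower in the mutant. Another 7 were higher in the mutant and lower in WT, 2.53% of the mutant list and 12.3% of the WT list. All genes were at 0.5% lower in WT and 2.43% higher in the mutant. The 65 genes ran the way the median gene lay, at −0.16 in the mutant contrast and 0.08 in WT. These overlaps were not recomputed under other scaling. Fibroblast and erythroid markers were also higher in mutant UI and WT 3dpa, and the part of that RNA in the 65 genes was not tested. The fibroblast markers *fn1b*, *postnb* and *col12a1a* are among the 65. Lower in both were 2 genes, *cdc42ep3*, an effector of the GTPase Cdc42, and the metalloproteinase gene *adamts15a*, which is named after its values were seen. They are 0.53% of the mutant list and 3.51% of the WT list, about the 0.5% and 3.3% of all genes lower in WT and in the mutant. No shared lowering is read from them. Across all 11411 genes Pearson's r between the contrasts was −0.14, a description over genes that share libraries and depth and are not independent replicates.

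Among the genes that ran oppositely, *mylk4b* stood at 2012 and 145 CPM in mutant 3dpa and mutant UI, against 200 CPM (186 to 215) and 477 CPM (455 to 500) in WT 3dpa and WT UI. *gadd45ba* stood at 740 CPM (702 to 779) and 169 CPM (151 to 188), against 104 and 382 CPM. *cited4a*, given above, and *nr4a1*, an early stress gene at 74.7 and 15.6 CPM, against 126 and 349 CPM, had the same arrangement. The fibronectin genes *fn1a* and *fn1b* ran the other way. *fn1b* stood at 25.8 and 131 CPM in the mutant libraries, against 92.4 and 19.3 CPM in the WT libraries. In the lowest 1500 it stood at 299 and 945 CPM, against 905 and 185 CPM, so it was lower in the muscle nuclei of every library. *fn1b* is itself on the fibroblast marker list, so its moving with that sum is partly built in. The part of those cells' RNA in the *fn1a* and *fn1b* results was not tested.

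**Figure D4:**
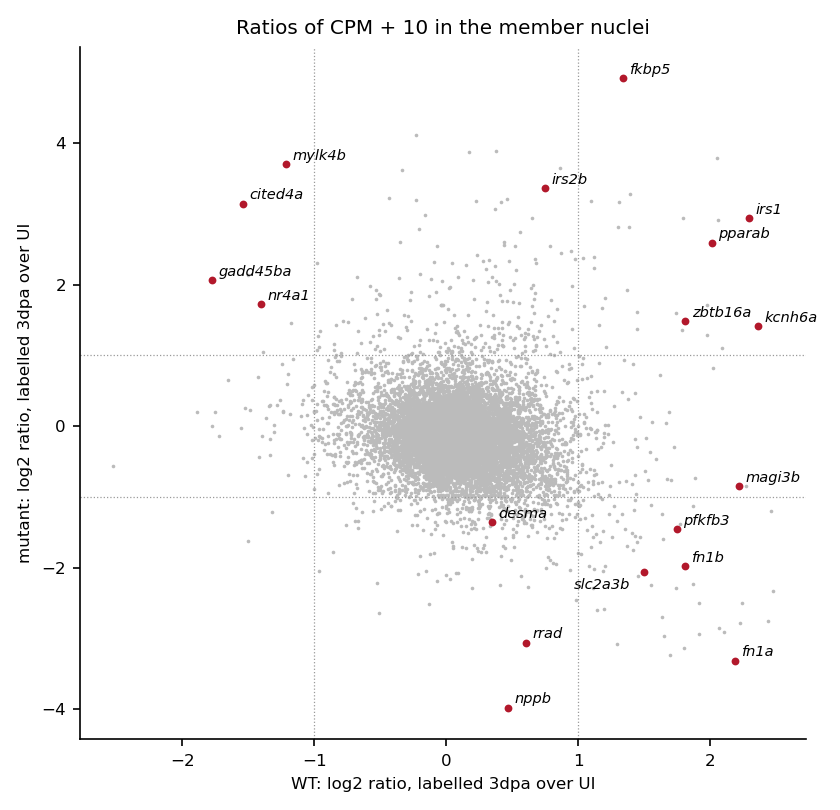
Log2 ratio (CPM + 10) of the library labelled 3dpa to that labelled UI in the mutant libraries (vertical axis) and in the WT libraries (horizontal axis) for 11411 genes, with named genes in red and dotted lines at a ratio of 1 in size. irs1, pparab and kcnh6a lie high in both contrasts, mylk4b and cited4a are high in the mutant and low in WT, and fn1a and fn1b are the reverse.

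The list of glucocorticoid and fasting response genes lay above the median of all genes in both injury contrasts. Of its 40 genes tested, 15 were higher (37.5%, beside 2.43% of all genes) and 3 lower in the mutant contrast, with a median log2 ratio of 0.42, beside −0.16 over all genes. In the WT contrast 8 were higher and 0 lower, beside 1.67% and 0.5% of all genes, with a median of 0.35 beside 0.08. It was not alone in this, since the median was −0.04 in the mutant and 0.31 in WT for the list of the CITED family, p300/CBP and hypoxia, and −0.01 and 0.14 for growth factor receptors and pathway genes. *irs1*, *irs2a*, *fkbp5*, both PLZF copies and *pdk4* were among those higher in both. The 3 lower in the mutant contrast were *cebpb*, *txnipa* and *angptl4*, and *angptl4* was past 2-fold higher in WT. *fkbp5*, a co-chaperone of the glucocorticoid receptor and a standard target of it, stood at 2939 CPM (2863 to 3016) and 87.7 CPM (75.1 to 102) in mutant 3dpa and mutant UI, against 1354 CPM (1317 to 1392) and 530 CPM (507 to 554) in WT 3dpa and WT UI. In the lowest 1500 *fkbp5* stood at 3066, 124, 1028 and 881 CPM, so its level was about as high in nuclei of low muscle share as in the muscle nuclei. Of the 15 genes higher in the mutant contrast, 11 were at least as high in the muscle nuclei as in the lowest 1500 of the library where they were higher, and 6 of the 8 in WT.

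The list of injury-border and stretch genes differed in its direction between the contrasts. Of 33 genes tested, 1 was past 2-fold higher and 14 lower in the mutant contrast (3.03% and 42.4%, beside 2.43% and 3.3% of all genes). The list had a median log2 ratio of −0.95. In the WT contrast 8 were higher and 0 lower (24.2% higher, beside 1.67% of all genes), with a median of 0.05. The gene higher in the mutant was *bag3*, a co-chaperone of the sarcomere's Z-disc, at 111 CPM (96.4 to 127) in mutant 3dpa and 28.7 CPM (21.8 to 37.2) in mutant UI. In WT 3dpa and WT UI it stood at 321 CPM (303 to 339) and 441 CPM (420 to 464). The 14 lower genes included *nppb*, *desma*, *nppa* and *xirp2a*, an actin-binding protein of the intercalated disc at 18.5 and 64.0 CPM in mutant 3dpa and mutant UI, and 6 of the 14 were at least as high in muscle nuclei as in the lowest 1500. The 8 genes higher in WT were *fn1a*, *fn1b*, *col12a1a*, *postnb*, *tmsb4x*, *socs3a*, *socs3b* and *runx1*, and 0 of these 8 reached the level of the lowest 1500. They are chiefly genes of matrix and wound cells, and the fibroblast sums given above were 889 and 243 CPM in the same pair. Those sums include *fn1b*, *postnb* and *col12a1a*, so they are not independent of these genes. The part of those cells' RNA in these counts was not tested.

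Of 45 sarcomere genes tested, 3 were higher and 3 lower in the mutant contrast (6.67% each, beside 2.43% and 3.3% of all genes). In the WT contrast 1 was higher and 0 lower (2.22%, beside 1.67% of all genes), and the medians were 0.04 and −0.08. Without the ranking genes, 2 of 39 were higher and 3 lower in the mutant contrast and 1 was higher in WT. The medians were then −0.02 and −0.08. The 3 higher in the mutant were *tcap*, *myoz2b* and *actc1a*, of which *actc1a* is a ranking gene and no finding. *tcap*, a titin cap protein gene, stood at 104 and 24.7 CPM in mutant 3dpa and mutant UI, against 134 and 137 CPM in WT 3dpa and WT UI. The gene higher in WT was *fhod3b*, a formin of the sarcomere, at 319 and 104 CPM. As a summed level, the sarcomere list held 97178 and 87861 CPM in the mutant libraries, against 130045 and 133217 CPM in the WT libraries, with the titin and myosin genes of the ranking included.

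Of 38 genes for calcium handling and excitation, 4 were higher and 2 lower in the mutant contrast, and 1 was higher and 1 lower in WT. These are 10.5% and 5.26% in the mutant, beside 2.43% and 3.3% of all genes. In WT they are 2.63% each, beside 1.67% and 0.5%. Without the ranking genes *ryr2b* and *slc8a1a* the counts were the same over 36 genes. *atp2a2a*, which encodes the SERCA pump, stood at 2482 CPM (2413 to 2553) and 845 CPM (805 to 886) in mutant 3dpa and mutant UI, against 2483 CPM (2433 to 2534) and 1704 CPM (1661 to 1747) in WT 3dpa and WT UI. Its log2 ratio was 1.54 in the mutant contrast and 0.54 in WT. *camk2d2*, a calcium/calmodulin kinase gene, stood at 801 and 283 CPM, against 368 and 372 CPM. *kcnh6a* was the member past 2-fold higher in both, at 2705 CPM (2632 to 2779) and 1011 CPM (967 to 1056) in the mutant libraries. The member lower in WT was *hrc*, a calcium-binding protein of the sarcoplasmic reticulum, at 27.7 and 77.2 CPM. *atp2a2a* and *kcnh6a* thus stood at nearly equal levels in the libraries labelled 3dpa of both genotypes, and at unequal levels in those labelled UI.

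Among genes of energy metabolism, the respiratory chain was the list with no gene past 2-fold. List counts stand beside 2.43% higher and 3.3% lower over all genes in the mutant contrast, and 1.67% and 0.5% in WT. Of 73 genes of the respiratory chain and ATP synthase, 0 were past 2-fold in the mutant or the WT injury contrast, with medians of 0.02 and 0.08. The shares over all genes are small too, so no particular steadiness is read from this. In the order mutant 3dpa, mutant UI, WT 3dpa and WT UI the list summed to 3214, 2968, 2884 and 2697 CPM. In the lowest 1500 it summed to 5806, 3059, 2044 and 2165 CPM, so it was higher in the muscle nuclei in the WT libraries only. Of 60 genes of the TCA cycle and fatty acid oxidation, 3 were higher and 2 lower in the mutant contrast and 2 were higher in WT. Those higher in the mutant were the regulators *pparab* and *ppargc1a* and the malonyl-CoA synthesis gene *acacb*. *ppargc1a*, the coactivator that drives mitochondrial biogenesis, stood at 2622 CPM (2551 to 2695) and 1118 CPM (1072 to 1165), against 1494 CPM (1455 to 1533) and 1375 CPM (1337 to 1413). Of 48 glycolysis genes, 3 were higher and 7 lower in the mutant contrast (6.25% and 14.6%, beside 2.43% and 3.3% of all genes) and 3 were higher in WT. The 7 lower were the enzyme genes *hk2*, *gapdhs*, *eno1a* and *gbe1a*, the kinase genes *pdk2b* and *pfkfb3*, and *slc2a3b*, and 3 of the 7 were at least as high in the muscle nuclei as in the lowest 1500 of mutant UI. *eno1a*, an enolase gene, stood at 198 and 424 CPM in mutant 3dpa and mutant UI, against 667 and 485 CPM in WT 3dpa and WT UI. *hk2*, a hexokinase gene, stood at 6.18 and 68.5 CPM, against 37.8 and 21.2 CPM, well under the lowest 1500 of each library at 35.5 and 665 CPM, against 449 and 305 CPM. The glucose transporter gene *slc2a3b* and *pfkfb3*, which makes an activator of phosphofructokinase, were on the lower side in the mutant and the higher side in WT. In the libraries other than WT 3dpa, both were at the level of the lowest 1500 or under it. The 3 genes higher in WT were *pfkfb3*, *slc2a3b* and *pdk4*. Of these, 2 were at least as high in the muscle nuclei as in the lowest 1500 of WT 3dpa. In mutant 3dpa *slc2a3b* had 4 UMIs and *pfkfb3* had 3 UMIs.

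Early stress genes, cell cycle genes and transcription factors completed the lists. Their counts stand beside 2.43% higher and 3.3% lower over all genes in the mutant contrast, and 1.67% and 0.5% in WT. Of 49 immediate-early and heat-shock genes, 6 were higher and 6 lower in the mutant contrast, and 3 higher and 3 lower in WT. Those higher in the mutant were *nr4a3*, *csrnp1b*, *gadd45ba*, *dusp2*, *nr4a1* and *bag3*. Of 21 cell cycle genes tested, 0 were higher and 1 lower in the mutant contrast, and 1 was higher in WT, the formin gene *diaph3* in both cases. The cell cycle list summed to 726, 896, 677 and 524 CPM in the order mutant 3dpa, mutant UI, WT 3dpa and WT UI, against 1984, 2976, 2590 and 1774 CPM in the lowest 1500. Its level in the muscle nuclei was thus well under that of nuclei of low muscle share in every library. Of 46 cardiac transcription factor genes, 1 was higher and 4 lower in the mutant contrast (2.17% and 8.70%), and 2 were higher in WT (4.35%). The 4 lower were *hand2*, *irx1a*, *irx2a* and *gata5*, and the one higher was *tbx5b*, at 130 and 57.4 CPM in mutant 3dpa and mutant UI.

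**Figure D5:**
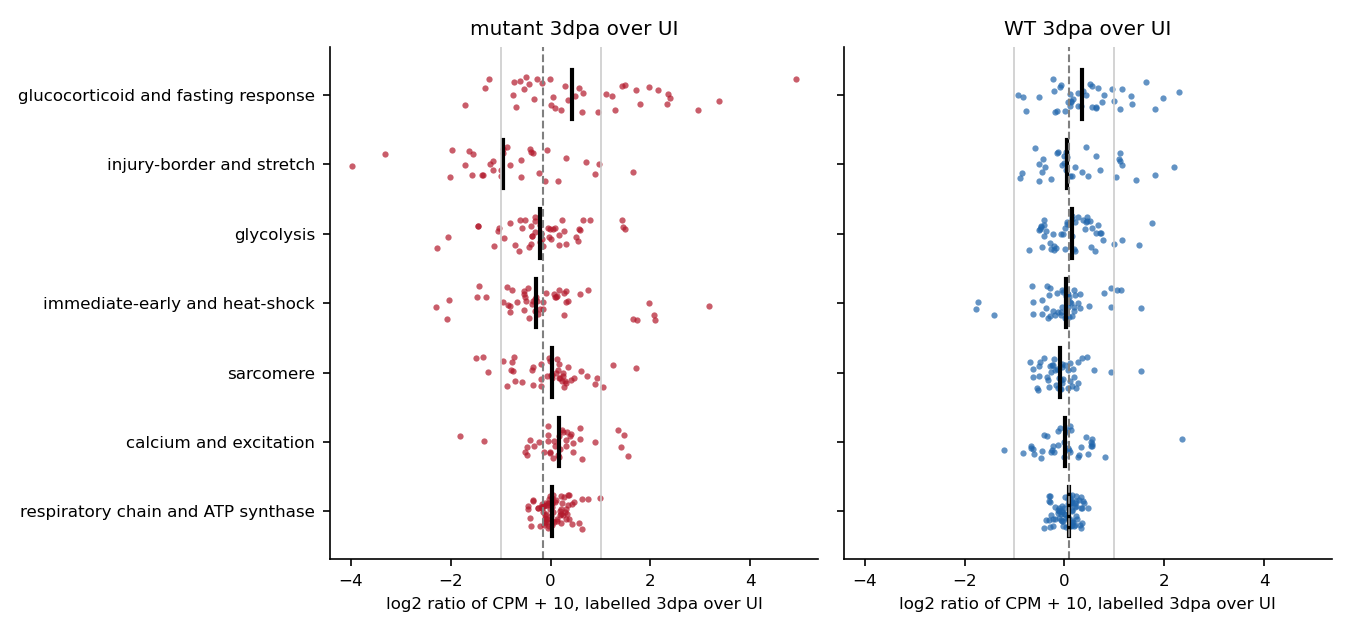
Log2 ratio (CPM + 10) of the library labelled 3dpa to that labelled UI for the genes of 7 lists (1 point a gene, scattered vertically for visibility) in the mutant libraries (left) and the WT libraries (right). Black bars are list medians, the dashed line is the median of all genes, and grey lines mark a ratio of 1 in size. The injury-border list has a median of −0.95 in the mutant and 0.05 in WT, and the respiratory chain has no gene past 2-fold in either.

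The lists not yet described gave the following counts in the injury contrasts. They stand beside 2.43% higher and 3.3% lower over all genes in the mutant contrast, and 1.67% and 0.5% in WT. Of 50 intercalated disc and costamere genes, 0 were higher and 4 lower in the mutant contrast and 0 in either direction in WT. Of 33 circadian clock genes, 1 was higher and 2 lower in the mutant and 2 were higher in WT, *npas2* and *arntl1b*. Of 33 genes of the CITED family, p300/CBP and hypoxia, 6 were higher in the mutant (18.2%, beside 2.43% of all genes), and 2 were higher and 1 lower in WT. The 6 were *cited4a*, *hif1al*, *mxi1*, *epas1b*, *slc2a1a* and *epas1a*, and 3 of them were at least as high in the muscle nuclei as in the lowest 1500 of mutant 3dpa. *hif1al*, a zebrafish HIF alpha gene, was higher in both, at 160 and 26.2 CPM in mutant 3dpa and mutant UI, against 58.3 and 21.5 CPM in WT 3dpa and WT UI, with 178, 25.7, 67.1 and 36.2 CPM in the lowest 1500. Its level thus followed that of the nuclei of low muscle share. Of 59 growth factor receptor and pathway genes, 4 were higher and 5 lower in the mutant and 3 were higher in WT, among them *stat3* at 438 and 187 CPM.

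Comparisons between genotypes share libraries with the injury contrasts and also differ by gene table. They pair libraries by injury label, and the labels of the mutant pair could not be checked. At 3dpa, the mutant library was lower than the WT library in 19 of 33 injury-border genes and higher in 0, beside 5.01% and 4.03% of all genes, with a median log2 ratio of −1.44. Of the 19, 10 were at least as high in the muscle nuclei as in the lowest 1500 of WT 3dpa. Fibroblast and epicardial markers stood lower in the same direction, at 158 CPM in mutant 3dpa, against 889 CPM in WT 3dpa, and their part in this count was not tested. Both the 19 genes and that marker list include *fn1b*, *postnb* and *col12a1a*. *nppb* stood at 8.76 CPM in mutant 3dpa, against 376 CPM in WT 3dpa, a log2 ratio of −4.36. *acta1a*, a skeletal actin gene, stood at 8.24 CPM (4.71 to 13.4) in mutant 3dpa, against 267 CPM (250 to 284) in WT 3dpa. Another actin gene, ENSDARG00000057911, stood at 53.1 CPM, against 1284 CPM. The 2 actin genes were thus far lower in the mutant library, and reads of near-identical actins can be assigned differently by the 2 gene tables, so these values are uncertain. Of 48 glycolysis genes 1 was higher and 16 lower. Among the 16, *gapdhs*, for glyceraldehyde-3-phosphate dehydrogenase, stood at 51.0 CPM (41.4 to 62.1) in mutant 3dpa, against 548 CPM (525 to 572) in WT 3dpa. Of 49 immediate-early and heat-shock genes 2 were higher and 20 lower.

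Higher in mutant 3dpa than in WT 3dpa were *mylk4b* (log2 ratio 3.26), *fbxo32* (2.69), *zbtb16b* (2.60) and *akap6* (2.74), the last of which encodes an anchor of protein kinase A at the nuclear envelope. *akap6* stood at 830 CPM (790 to 871) in mutant 3dpa, against 116 CPM (105 to 127) in WT 3dpa. *hcn4*, the pacemaker channel gene, stood at 839 CPM (799 to 881), against 203 CPM (189 to 218). Of the 40 glucocorticoid and fasting genes, 15 were higher and 0 lower (37.5% higher, beside 4.03% of all genes), with a median of 0.81. *kcnh6a* and *atp2a2a* differed little, with log2 ratios of 0.02 and −0.00.

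Between the libraries labelled UI, some of the stress genes were lower in the mutant. *nr4a3* stood at 7.56 CPM in mutant UI, against 314 CPM (296 to 333) in WT UI, a log2 ratio of −4.21. *atf3* stood at 5.04 CPM (2.42 to 9.27), against 188 CPM, a log2 ratio of −3.72. *bag3* stood at 28.7 CPM, against 441 CPM, a log2 ratio of −3.54. These 3 stress genes were among 15 of 49 immediate-early and heat-shock genes lower in mutant UI (30.6%, beside 3.72% of all genes). The 4 higher were *klf11b*, *junba*, *csrnp1a* and *nr4a2b* (8.16%, about the 7.94% of all genes). *sbk3* stood at 57.9 CPM, against 348 CPM (329 to 368). Higher in mutant UI were *magi3b*, at 1327 CPM (1277 to 1378), against 96.7 CPM, and *zbtb16b*, at 215 CPM (195 to 237), against 20.9 CPM. *akap6* stood at 514 CPM (483 to 547), against 79.1 CPM, so it was higher in the mutant library under both injury labels, as *zbtb16b* was. Of 45 sarcomere genes 3 were higher and 12 lower in mutant UI (6.67% and 26.7%, beside 7.94% and 3.72% of all genes). At 3dpa 1 was higher and 9 lower (2.22% and 20.0%, beside 4.03% and 5.01%). Without the ranking genes, 3 of 39 were higher and 11 lower at UI, and 1 was higher and 9 lower at 3dpa.

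The other lists were counted in the same way between genotypes, and their counts stand beside 4.03% higher and 5.01% lower over all genes at 3dpa and 7.94% and 3.72% at UI. Of 38 calcium and excitation genes, 4 were higher and 4 lower at 3dpa, and 3 higher and 9 lower at UI, among them *atp2a2a* at 845 CPM in mutant UI, against 1704 CPM in WT UI. Of 50 intercalated disc genes, 1 was higher and 6 lower at 3dpa, and 0 were higher and 7 lower at UI. Of 60 genes of the TCA cycle and fatty acid oxidation, 1 was higher and 1 lower at 3dpa, and 9 were higher and 3 lower at UI, with *cpt1ab*, for the carnitine shuttle of fatty acids, at 924 CPM in mutant UI, against 359 CPM in WT UI. *esrra*, the estrogen-related receptor gene that steers mitochondrial genes, was lower in both, at 133 and 106 CPM in mutant 3dpa and mutant UI, against 351 and 639 CPM in WT 3dpa and WT UI. Of 73 respiratory chain genes 3 were higher at 3dpa and 1 at UI, and 0 were lower in either. At UI, 6 injury-border genes were higher and 8 lower, 1 glycolysis gene was higher and 7 lower, and 9 glucocorticoid and fasting genes were higher and 3 lower. Of the 6 higher injury-border genes, 0 were at least as high in the muscle nuclei as in the lowest 1500 of mutant UI. All 8 lower ones were so in WT UI. Fibroblast and epicardial markers, some of them among the 6, stood at 1054 CPM in mutant UI, against 243 CPM in WT UI. The part of that RNA in the 6 was not tested. Of 33 clock genes, 4 were higher and 3 lower at 3dpa, and 4 higher and 5 lower at UI. Of 21 cell cycle genes, 2 were higher and 2 lower at 3dpa, and 3 higher and 0 lower at UI. Of 46 cardiac transcription factor genes, 4 were higher and 2 lower at 3dpa, among the higher *pbx1a* and *tbx5b*, and 3 higher and 1 lower at UI. Of 59 growth factor receptor and pathway genes, 4 were higher and 3 lower at 3dpa, and 5 higher and 4 lower at UI. Of 33 genes of the CITED family, p300/CBP and hypoxia, 4 were higher and 2 lower at 3dpa, and 3 higher and 5 lower at UI.

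The muscle nuclei were also set beside muscle nuclei that did carry *ankrd1a*, defined as barcodes past the same depth and mitochondrial filters, with 1 or more *ankrd1a* UMIs and a muscle share at least that of the lowest chosen nucleus. There were 3 and 38 of these in mutant 3dpa and mutant UI, and 108 and 28 in WT 3dpa and WT UI. They made up 0.200% (exact interval 0.0412 to 0.582), 2.47% (1.75 to 3.38), 6.72% (5.54 to 8.05) and 1.83% (1.22 to 2.64) of the muscle nuclei. Among the mutant pair the library labelled UI thus had the higher share, and among the WT pair the one labelled 3dpa. Lacking an *ankrd1a* UMI also depends on depth, and the positive nuclei were the deeper ones, at a median of 1295.5, 2738 and 2104.5 UMIs in mutant UI, WT 3dpa and WT UI.

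Nuclei without *ankrd1a* held less of the Xin stretch genes than those with it. *xirp2a* had log2 ratios of −2.44, −1.63 and −2.12 for nuclei without over nuclei with *ankrd1a* in mutant UI, WT 3dpa and WT UI. *xirp1*, another Xin actin-binding protein gene, chosen here after its values were seen, had ratios of −0.89, −1.09 and −0.92. Both Xin genes were thus lower in nuclei without *ankrd1a* in all 3 libraries. *nppb* was not uniform, at −0.998, −0.86 and 0.45. Of the 33 injury-border genes, 9, 7 and 5 were past 2-fold lower in nuclei without *ankrd1a* in these libraries, beside 7.03%, 1.06% and 3.69% of all genes, which leaves these counts above the share of all genes in each library. The 38 positive nuclei of mutant UI hold only 63706 UMIs, so single genes there are noisy. Those of WT UI hold 164820 UMIs at a median of 2104.5 UMIs, so the deeper ones make up most of that sum. Endothelial, macrophage and fibroblast markers summed to 1844, 479 and 504 CPM in them, against 939, 227 and 243 CPM in nuclei without *ankrd1a*. Only the neuronal or Schwann sum went the other way, at 78.9 against 114 CPM. The part of other cells' RNA in the WT UI ratios and count was not tested. The 3 positive nuclei of mutant 3dpa were too few to give a level.

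Chamber myosin UMIs were seen in a minority of nuclei. The ventricular myosin gene *myh7* without the atrial *myh6* was seen in 87 and 139 nuclei of mutant 3dpa and mutant UI, and in 533 and 430 of WT 3dpa and WT UI. *myh6* without *myh7* was seen in 4, 28, 8 and 3 nuclei, and both together in 0, 2, 3 and 2. Nuclei with only *myh7* thus outnumbered those with only *myh6* in every library, while 1409, 1331, 956 and 1065 nuclei had neither, which is a matter of depth as well as of identity. The ranking used *myh7l*, a gene of the ventricular list, and no gene of the atrial list. These counts therefore do not give the chamber make-up of the hearts. As levels, *myh7* stood at 51.0 and 96.2 CPM in the mutant libraries, against 295 and 192 CPM in the WT libraries. Of 4 atrial genes tested, *myh6* and *nppa* were past 2-fold lower in mutant 3dpa than in mutant UI, with a list median of −0.76, and of 5 ventricular genes *irx1a* and *irx2a* were, with a median of −0.80. In the WT contrast 0 genes of either list were past 2-fold, with medians of 0.08 and 0.07. Without the ranking gene *myh7l*, the ventricular median over 4 genes was −1.13 in the mutant contrast and 0.15 in WT. Between genotypes, 1 ventricular gene (*myh7*) was lower in the mutant at 3dpa, and *myh6* and *irx1a* were higher in the mutant at UI.

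Along the ranking, genes that did not set it varied by gene and library. Over ranks 1 to 500, 501 to 1000 and 1001 to 1500, *atp2a2a* stood at 2434, 2481 and 2529 CPM in mutant 3dpa and at 893, 724 and 919 CPM in mutant UI. It stood at 2301, 2585 and 2515 CPM in WT 3dpa and at 1586, 1807 and 1711 CPM in WT UI. *nppb* stood at 15.8, 3.10 and 7.50 CPM in mutant 3dpa, where it had few UMIs, at 278, 276 and 302 CPM in mutant UI and at 338, 379 and 399 CPM in WT 3dpa. The chamber myosin *myh7* stood at 154, 69.8 and 68.1 CPM and *myh6* at 34.6, 23.8 and 14.8 CPM in mutant UI, both highest in the nuclei richest in muscle transcripts. For *atp2a2a* the differences among these rank classes were smaller than the difference between the mutant libraries. After thinning to 500 UMIs, nuclei held a median of 365, 372, 349 and 345 genes. At that depth 2 or more cell cycle UMIs were found in 6.61%, 7.76%, 7.27% and 4.13% of muscle nuclei, against 25.6%, 31.0%, 28.6% and 20.2% of the lowest 1500. The shares in muscle nuclei were below those of low-muscle nuclei in every library, and no cycling is read from them.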

How the data were processed

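The deposited matrices, 1 per group, hold unscaled UMI counts of genes in barcodes and were made with Cell Ranger 7.0.0 per the file headers. The submitters' processing notes also name GRCz11, R 4.2.0 and Seurat 4.3.0, with no role given. The sources used here do not give intron handling, cell calling or the annotation release. Nuclei came from flash-frozen hearts and libraries were built with a 10x Chromium 3′ kit, per the labels' protocols. Of 25419 gene IDs in every table, 25395 had 1 symbol throughout, which made 24753 symbols, of which 511 joined several IDs. UMIs on these held 91.3% and 89.7% of the UMIs of the chosen nuclei in mutant 3dpa and mutant UI, against 99.95% and 99.94% in WT 3dpa and WT UI.

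UMIs were summed over the 1500 nuclei of each matrix (1941371, 1984548, 3753625 and 3628740 in the order mutant 3dpa, mutant UI, WT 3dpa and WT UI) and scaled to CPM over the shared genes. Single sums carry exact Poisson and shares exact Clopper-Pearson intervals at 95%, which cover counting error only, since samples of a group cannot be told apart and no test across samples exists. A share of 0 would allow up to 3 counts of the total. Genes with at least 50 UMIs over the 4 sums were compared as log2 (CPM + 10). The ratio code was tested on simulated data. In the same order 40.3%, 34.0%, 13.3% and 0.133% of the nuclei had under 1000 UMIs, and for shares each nucleus was thinned to 500 UMIs. Doublets were kept, because scrublet's automatic threshold marked 0, 0, 1 and 0 barcodes (scanpy 1.11.5) and had not worked. Removing the 6% with the highest scores is an alternative. The deepest nucleus of WT UI held 55079 UMIs, and mean CPM per nucleus, in which such a nucleus weighs no more than another, is a further alternative.

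Genes are named by rule. In each comparison these are the 12 highest and 12 lowest ratios among genes at least 2 times as high as in the lowest 1500 of the library where they are higher, without clone-like names or the ranking genes, *cited4a*, and the 2 highest and 2 lowest of each list. Some clone-like names and bare IDs passed the rule and are not described, apart from 1 actin. The nuclei, lists and comparisons were chosen with earlier results of these data known. Alternatives used edgeR 4.0.16 TMM factors and DESeq2 1.42.0 size factors as scaling only, and other filters, nuclei numbers and pseudocounts. Gene symbols are those of the files, and name table symbols were used for none of the values.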

Additional observations from a re-analysis of the deposited data

Results flagged for a closer look

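Some genes were past 2-fold in opposite directions in the muscle nuclei of the 2 genotypes. With 1 library a group, the difference between genotypes was not tested, and each value below is the log2 ratio labelled 3dpa over UI in the mutant minus that in WT. It was 4.92 for *mylk4b*, 4.69 for *cited4a*, 3.84 for *gadd45ba* and 3.13 for *nr4a1*, each higher under the 3dpa label in the mutant and lower in WT. It was −5.50 for *fn1a*, −3.78 for *fn1b*, −3.56 for *slc2a3b*, −3.20 for *pfkfb3*, −2.87 for *angptl4* and −2.57 for *diaph3*, each lower in the mutant and higher in WT. Of these 6 genes, *fn1a*, *slc2a3b* and *pfkfb3* rest on 3, 4 and 3 UMIs in mutant 3dpa.

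A signal also lay in genes outside the shared gene table, which the comparisons do not use. *pln*, which encodes phospholamban, the small membrane protein that restrains the SERCA pump, was listed in the mutant tables and stood at 2406 CPM in mutant 3dpa and 2800 CPM in mutant UI, taken over all genes of those tables. In the lowest 1500 it stood at 1557 and 540 CPM, and 87.7% and 89.6% of the muscle nuclei held a *pln* UMI. Genes outside the shared table held 8.66% and 10.3% of the UMIs of the muscle nuclei in mutant 3dpa and mutant UI, against 0.0490% and 0.0632% in WT 3dpa and WT UI. Most of these UMIs were on 1 clone-named gene, CR383676.2, with 6.62% and 8.35% of the UMIs of the muscle nuclei in mutant 3dpa and mutant UI. It stood at 66180.5 and 83486 CPM over all genes, and at 63687 and 82446 CPM in the lowest 1500, so it was about as high in nuclei of low muscle share.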

How the results depend on the processing

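The counts of all genes past 2-fold, the list medians and the genes named by the rule were recomputed under 18 alternatives. Of these, 2 were added after seeing the data. They used all nuclei with a muscle share of 6% or more, or chosen nuclei of middle depth. The latter left out those under 1000 UMIs and the deepest. Counts within a list, overlaps between contrasts and comparisons within a matrix were not recomputed. Of 144 recomputed counts 126 stayed within 1.5 times the reported one and 18 did not. With a pseudocount of 1 CPM the higher and lower counts were 609 and 1494 (mutant 3dpa over UI), 888 and 157 (WT 3dpa over UI), 984 and 1759 (mutant over WT at 3dpa) and 2176 and 882 (mutant over WT at UI). TMM scaling gave 233 lower genes in the mutant and 99 in the WT injury contrast, and 540 higher at UI. DESeq2 size factors gave 228 and 108 lower, and 528 higher and 658 lower at UI. The 500 highest nuclei gave 97 lower genes in WT, equal weight per nucleus gave 336 higher in WT, and nuclei of middle depth gave 353 higher in WT. The cause was not tested. Of 1152 recomputed list medians 5 moved by over 1.5 times in ratio, and of 15408 recomputed gene values 1770 moved by more than their counting interval. Among medians of at least 0.5 in size, a further 2 changed sign: cell cycle, mutant 3dpa over UI, at 0.0541 with the 500 highest nuclei (−0.56 as reported), and ventricular chamber, mutant over WT at UI, at −0.17 with nuclei of middle depth (0.76 as reported). No named gene past 2-fold changed sign under these alternatives. No paired analysis was possible because barcodes name no sample and each group is 1 matrix. Depth of the mutant nuclei limits low genes.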

Other observations

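Expression of further genes named by the rule described the muscle nuclei labelled UI. *kcnj5* stood at 32.2 CPM in mutant UI, against 4.41 CPM in WT UI. *slc1a3a*, a glutamate transporter gene, stood at 109 CPM in mutant UI, against 9.65 CPM in WT UI, and *crot*, for the peroxisomal carnitine acyltransferase, at 101 CPM, against 8.82 CPM. These 3 genes were thus higher in the mutant library, with log2 ratios of 1.55, 2.60 and 2.56. *hsp90aa1.1*, a chaperone that folds muscle myosin in zebrafish, stood at 7.05 CPM in mutant UI, against 112 CPM in WT UI, and *hspb6*, a small heat shock protein gene, at 10.1 CPM, against 122 CPM. At 3dpa *hspb6* stood at 73.1 CPM in the mutant, against 119 CPM in WT.

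Some potassium channel genes also differed between the mutant and WT libraries labelled 3dpa. *kcnq1.1*, for a slow repolarising current, stood at 842 and 559 CPM in mutant 3dpa and mutant UI, against 230 and 298 CPM in WT 3dpa and WT UI. *kcnh7* stood at 3.09 and 13.6 CPM, against 137 and 20.4 CPM. *kcnq1.1* was thus higher in both mutant libraries, while *kcnh7* was high in WT 3dpa.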
